A study of Mus musculus with 71 samples.

Results

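The genes described here drive and restrain cell division, and they were followed in adipocytes that had already differentiated. The 38 genes were chosen by function, with earlier results of these data known. They comprised 10 replication genes, 14 mitosis genes and 14 genes of cyclins, their kinases, their inhibitors and the pocket proteins. All but Ccnb1, for which no probe set was annotated to it alone, were read by 74 probe sets annotated to 1 gene, out of 22626 probe sets in all. Murine 3T3-L1 and C3H/10T1/2 cells, which are established fibroblast-like lines, were turned into adipocytes and then received 1 µM rosiglitazone (RSG), an agonist of the nuclear receptor PPARγ, or its vehicle DMSO, for times of 1, 2, 4, 7, 24 or 48 hrs. Only 2 arrays were used for 2 hrs of DMSO in 3T3-L1 adipocytes and 3 for every other group, so that 35 and 36 arrays were used. All groups had been exposed to RSG before. C3H/10T1/2 cells were differentiated with 10 µM RSG and insulin over 6 days, and 3T3-L1 cells with insulin, IBMX, dexamethasone and 100 nM RSG over 2 days, then with insulin for 2 days and in plain medium for 3 days. Every culture then spent 24 hrs in a serum-free washout medium with 1% albumin. The methods state that the replicates came from different batches of cells and that wells were pooled for each sample.

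A cell that enters division makes D-type cyclins, which with Cdk4 phosphorylate the retinoblastoma protein (Rb1) and its relative Rbl1, and this frees E2F factors to switch on the replication genes. Cyclins E and A with Cdk2 start DNA synthesis, and cyclins A and B with Cdk1 carry the cell into mitosis. Cdkn1a, Cdkn1b, Cdkn1c and Cdkn2c encode inhibitors of these kinases. 3T3-L1 preadipocytes divide again early in their differentiation and then leave the cell cycle, so that mature adipocytes are not dividing cells.

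Promoters of 30 of the 38 genes were matched by symbol in RefSeq (build GRCm38.p6). The sequences before the start of Cdk1, Mcm6 and Pcna are shown because these genes of mitosis and replication were among those called lower with RSG below. Each is 250 bases, 5′ to 3′, ending at the base before the start, with the matches to the searched motifs in capitals.
Cdk1 (chr10:69352913-69353162, minus strand): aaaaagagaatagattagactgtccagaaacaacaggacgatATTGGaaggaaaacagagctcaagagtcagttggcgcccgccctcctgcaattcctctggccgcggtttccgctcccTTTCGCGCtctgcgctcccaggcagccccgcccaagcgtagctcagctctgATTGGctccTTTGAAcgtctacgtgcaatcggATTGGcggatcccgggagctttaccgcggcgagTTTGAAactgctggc
Mcm6 (chr1:128359706-128359955, minus strand): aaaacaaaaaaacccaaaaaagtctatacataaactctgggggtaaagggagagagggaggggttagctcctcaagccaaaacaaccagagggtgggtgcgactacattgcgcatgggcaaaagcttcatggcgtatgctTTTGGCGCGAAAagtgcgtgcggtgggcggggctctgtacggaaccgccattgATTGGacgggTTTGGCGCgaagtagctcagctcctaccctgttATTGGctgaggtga
Pcna (chr2:132253181-132253430, minus strand): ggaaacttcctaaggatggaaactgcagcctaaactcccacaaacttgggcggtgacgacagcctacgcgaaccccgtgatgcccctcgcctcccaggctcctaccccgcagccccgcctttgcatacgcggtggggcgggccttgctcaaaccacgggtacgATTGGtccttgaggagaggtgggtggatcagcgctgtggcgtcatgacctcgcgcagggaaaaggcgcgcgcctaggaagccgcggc
The capitals mark an E2F site (TTTCCCGC, TTTGGCGC, TTTCGCGC or TTTGCCGC), a CHR element (TTTGAA or TTTAAA) or a CCAAT box (CCAAT), on either strand, and neighbouring E2F matches could overlap. In this stretch Cdk1 held 1 E2F match, 2 CHR matches and 3 CCAAT boxes, Mcm6 held 3 E2F matches and 2 CCAAT boxes, and Pcna held 1 CCAAT box. Within the 300 bases from 250 before to 50 after the start, a CHR match was found in 11 of 12 mitosis promoters, 3 of 9 replication promoters and 2 of 9 promoters of the cyclin group, against 27.8% of all 27025 promoters. An E2F match was found in 1, 4 and 2 of them, against 2.3% of all promoters, and a CCAAT box in 11, 8 and 2, against 37.9%. These are matches of letters and were not tested as sites.

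Many genes of mitosis were near or under the limit of detection in these adipocytes. A signal was called present at or above 19.9, below which 95% of the signals of 27 bacterial controls lay, and a probe set was tested in a cell type if at least 1 of its 12 group means reached that limit. This kept 60 of the 74 probe sets (32 genes) in 3T3-L1 and 52 (28 genes) in C3H/10T1/2 adipocytes. Of the 28 probe sets of the cyclin group, 23 were present on every array of 3T3-L1 and 19 on every array of C3H/10T1/2 adipocytes, against 9 and 2 of the 21 for mitosis and 13 and 9 of the 25 for replication. Tyms, Bub1, Bub1b, Ccnb2 and Cdkn1c had no group mean at the limit in either cell type and were not tested. Mki67, whose product is the proliferation marker Ki-67, had group means from 4.07 to 23.7 in 3T3-L1 and from 1.73 to 8.30 in C3H/10T1/2 adipocytes. Birc5, which encodes survivin, had group means from 15.6 to 37.1 in 3T3-L1 and from 3.67 to 13.1 in C3H/10T1/2 adipocytes. Mcm5, a subunit of the replicative helicase, had group means from 21.2 to 29.0 in 3T3-L1 adipocytes and was under the limit in all 12 group means of C3H/10T1/2 adipocytes. Mki67, Birc5, Mcm5 and Rrm2 were not tested in C3H/10T1/2 adipocytes either.

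For 3T3-L1 adipocytes the array medians were 50.2 to 64.2 and 67.8% to 73.9% of probe sets reached the limit, and for C3H/10T1/2 adipocytes the medians were 38.2 to 46.9 and 62.1% to 67.7% reached it. The 8 adipocyte markers on the array were present on every array, among them Adipoq (adiponectin) at signals from 5670 to 9356 in 3T3-L1 and from 4966 to 7729 in C3H/10T1/2 adipocytes. Of the 6 macrophage markers, Itgam was under the limit on every array, and Ptprc on 34 of 35 and on 36 of 36. Csf1r and Cd68 were present on every array, at 82.4 to 201.3 and 23.0 to 49.7 in 3T3-L1 and 44.5 to 107.8 and 48.9 to 367.0 in C3H/10T1/2 adipocytes. Adgre1 (25.5 to 92.2) and Lyz2 (21.4 to 96.1) were present on all 35 arrays of 3T3-L1 adipocytes and were under the limit on 7 and 9 of the 36 arrays of C3H/10T1/2 adipocytes. All 12 fibroblast and preadipocyte markers were present in every group. Their summed signal in 3T3-L1 adipocytes was 16820 to 21819 with RSG, against 22323 to 27449 with DMSO, at 24 hrs, and 18803 to 20882 with RSG, against 27172 to 27724 with DMSO, at 48 hrs. In C3H/10T1/2 adipocytes it was 14348 to 15930 with RSG, against 19606 to 23416 with DMSO, at 24 hrs, and 14108 to 15705 with RSG, against 18241 to 19207 with DMSO, at 48 hrs. Of the 22 probe sets of these markers, 7 were lower with RSG in 3T3-L1 cultures after 24 hrs and 12 after 48 hrs, the corresponding C3H/10T1/2 counts were 7 and 6, and none was higher by limma, also at an unadjusted p under 0.05. The part of these markers in the results for cell cycle genes was not tested. In these bulk samples fewer cells of a type and less RNA per cell cannot be told apart.

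The first comparison asked when RSG changed cell cycle genes. In 3T3-L1 adipocytes no cell cycle probe set was called at 1, 2, 4 or 7 hrs in the main fit. With the replicate number added to the fit as a block, Ccnd2 was called higher at 7 hrs, as given below. At 24 and 48 hrs a few probe sets were lower with RSG in the main fit, of Ccnd1, Cdk4, Cdk1 and Pcna at both times and of Mcm6 at 24 hrs. Log2 signals were fitted with limma and a call needed an adjusted p under 0.05 over all tested probe sets (Benjamini-Hochberg). At 1, 2, 4 and 7 hrs, 0.0666%, 0.172%, 0.716% and 2.04% of all tested probe sets were called in either direction. At an unadjusted p under 0.05, 2, 3, 1 and 7 cell cycle probe sets were higher and 0, 1, 0 and 3 lower, and the methods' test (analysis of variance on log10 signals, unadjusted p under 0.05 and a 1.2-fold difference) called 3, 2, 1 and 4. Of all 18028 tested probe sets, 508, 493, 656 and 965 were higher and 249, 278, 600 and 1243 lower at that unadjusted p by limma. At 24 hrs limma called 1 of the 60 cell cycle probe sets higher and 8 lower (13.3%), against 4.79% and 6.97% of all tested probe sets. The 8 lower ones stood for 5 genes. At 48 hrs 1 was higher (1.67%) and 6 were lower (10.0%, 4 genes), against 6.20% and 8.09% of all, so that the share lower was near that of all tested probe sets. The median log2 fold change of the cell cycle probe sets was 0.02 at 24 hrs and -0.12 at 48 hrs, against -0.01 and -0.03 for all tested probe sets. By group, 2 of 20 replication, 1 of 14 mitosis and 5 of 26 cyclin group probe sets were lower at 24 hrs, and 1, 1 and 4 at 48 hrs. Leaving out 1 array at a time left 3 to 6 lower at 24 hrs and 4 to 7 at 48 hrs, with 3 at 24 hrs without RSG replicate 2 or DMSO replicate 3, 4 without RSG replicate 1 and 5 without RSG replicate 3, and 4 at 48 hrs without DMSO replicate 1 or 3. After quantile normalization 4 of the 60 were lower at 24 hrs, against 6.52% of all tested probe sets, which is also near the share of all.

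**Figure D1:**
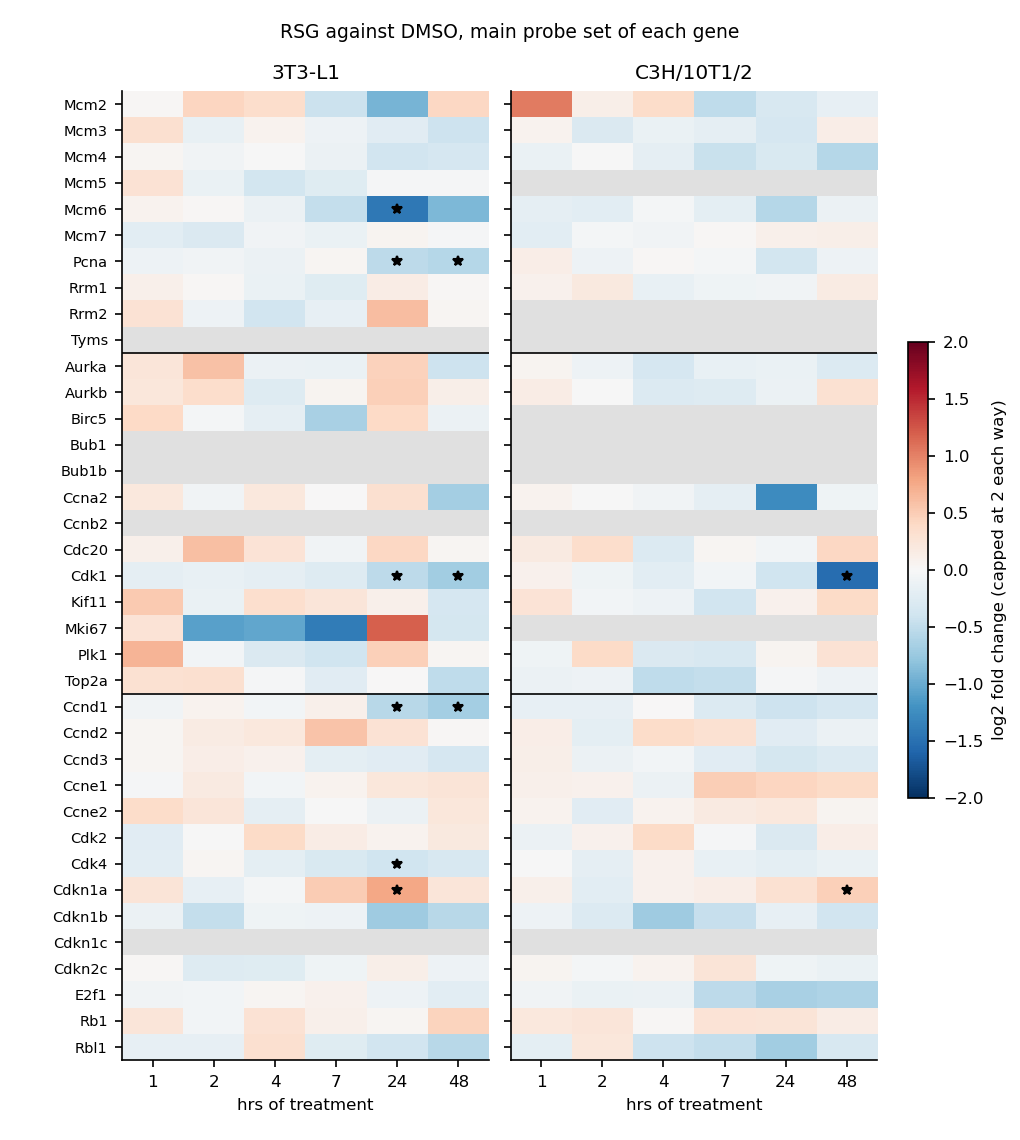
Log2 fold change, RSG over DMSO, of the main probe set of each gene (rows, from replication at the top through mitosis to the cyclin group) at each time in hrs (columns) for 3T3-L1 adipocytes and for C3H/10T1/2 adipocytes. Stars mark an adjusted p under 0.05, grey marks genes not tested in that cell type, and the stars lie at 24 and 48 hrs only.

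Cyclin D1 (Ccnd1), the partner of Cdk4 that responds to growth factors, was lower with RSG at both late times. Its probe set 1417420_at read 94.5, 85.8 and 120.1 with RSG and 189.6, 191.1 and 261.3 with DMSO after 24 hrs in 3T3-L1 cultures, and 114.1, 128.9 and 132.4 with RSG against 282.0, 238.7 and 261.9 with DMSO at 48 hrs. All RSG arrays lay below all DMSO arrays at both times. The log2 fold change was -1.09 ± 0.30 (SE; adjusted p = 0.0139) at 24 hrs and -1.06 ± 0.30 (adjusted p = 0.0145) at 48 hrs by limma. The main probe set, 1448698_at, was lower than with DMSO by 0.55 ± 0.14 (adjusted p = 0.00741) and 0.67 ± 0.14 (adjusted p = 0.000904) on the log2 scale by limma. The third, 1417419_at, was not called, with changes of -0.57 and -0.50. The vehicle level itself changed over these hours. Against DMSO at 1 hr, 1448698_at with DMSO changed by 0.33 (not called) and 0.65 (called) at 24 and 48 hrs. Probe set 1417420_at changed by 0.80 (not called) and 1.10 (called). The RSG arrays were not tested against DMSO at 1 hr. At 24 hrs limma's call of 1417420_at was lost without RSG replicate 1 or 2 (adjusted p = 0.0536 and 0.0611), and without DMSO replicate 3 the calls of 1417420_at and 1448698_at were both lost (adjusted p = 0.0889 and 0.0975). At 48 hrs that of 1417420_at was lost without replicate 1 of RSG or of DMSO (adjusted p = 0.0573 and 0.0565).

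Cdk4, the kinase bound by D-type cyclins, fell by a smaller amount on all its probe sets at 24 hrs. Probe set 1422440_at read 228.9, 230.0 and 252.5 with RSG and 330.2, 297.8 and 329.6 with DMSO at 24 hrs, and 278.6, 247.9 and 252.3 with RSG against 375.8, 308.8 and 373.2 with DMSO at 48 hrs. The RSG and DMSO arrays did not overlap at either time. The log2 changes of 1422441_x_at, 1422440_at and 1422439_a_at at 24 hrs were -0.41, -0.43 and -0.42 (adjusted p = 0.0255, 0.0361 and 0.0464 by limma). At 48 hrs they were -0.32, -0.44 and -0.52, and the call of 1422441_x_at was missed (adjusted p = 0.0818, and 0.0273 with the replicate block). Each of these calls was lost without at least 2 of the 6 arrays, with adjusted p by limma up to 0.292 at 24 hrs and 0.109 at 48 hrs, and after quantile normalization none of the 24 hr calls passed (adjusted p = 0.0529, 0.0671 and 0.0865). That of 1422439_a_at was also lost without the trend or the filter (adjusted p = 0.0601 and 0.052).

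Cdk1, the kinase of mitosis, was the 1 mitosis gene called. It read 204.4, 119.6 and 161.8 with RSG and 195.2, 231.5 and 257.8 with DMSO at 24 hrs, where 1 RSG array lay within the DMSO range. At 48 hrs it read 117.2, 133.4 and 144.9 with RSG against 240.7, 196.6 and 204.7 with DMSO, and the groups did not overlap. The log2 fold changes were -0.52 ± 0.17 (adjusted p = 0.0382) and -0.70 ± 0.17 (adjusted p = 0.00364) by limma. The call at 24 hrs was lost without RSG replicate 2 or 3 (adjusted p = 0.286 and 0.0732), without DMSO replicate 2 or 3 (adjusted p = 0.107 and 0.192) and after quantile normalization (adjusted p = 0.0718), while the call at 48 hrs passed without any 1 array.

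Of the replication genes, Pcna and Mcm6 were called. Pcna, the sliding clamp of DNA polymerase, read 522.1, 568.6 and 552.5 with RSG and 754.4, 726.4 and 878.0 with DMSO at 24 hrs in 3T3-L1 adipocytes. At 48 hrs it read 545.2, 465.0 and 658.0 with RSG against 930.4, 667.1 and 884.6 with DMSO. The RSG arrays were below the DMSO arrays at both times, and the log2 fold changes were -0.52 ± 0.13 (adjusted p = 0.00867) and -0.57 ± 0.13 (adjusted p = 0.00294) by limma, and the call at 24 hrs was lost without DMSO replicate 3 (adjusted p = 0.072). Mcm6, a helicase subunit, read 31.5, 55.7 and 12.4 with RSG against 55.3, 84.9 and 91.2 with DMSO at 24 hrs, so that the groups overlapped and 1 RSG array was under the presence limit. Its log2 fold change was -1.43 ± 0.36 (adjusted p = 0.00673) by limma, and -0.85 (adjusted p = 0.108) without that array, RSG replicate 3. At 48 hrs it was -0.89 (adjusted p = 0.101). Its second probe set, 1438852_x_at, changed by -0.86 at 24 hrs and was not called.

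**Figure D2:**
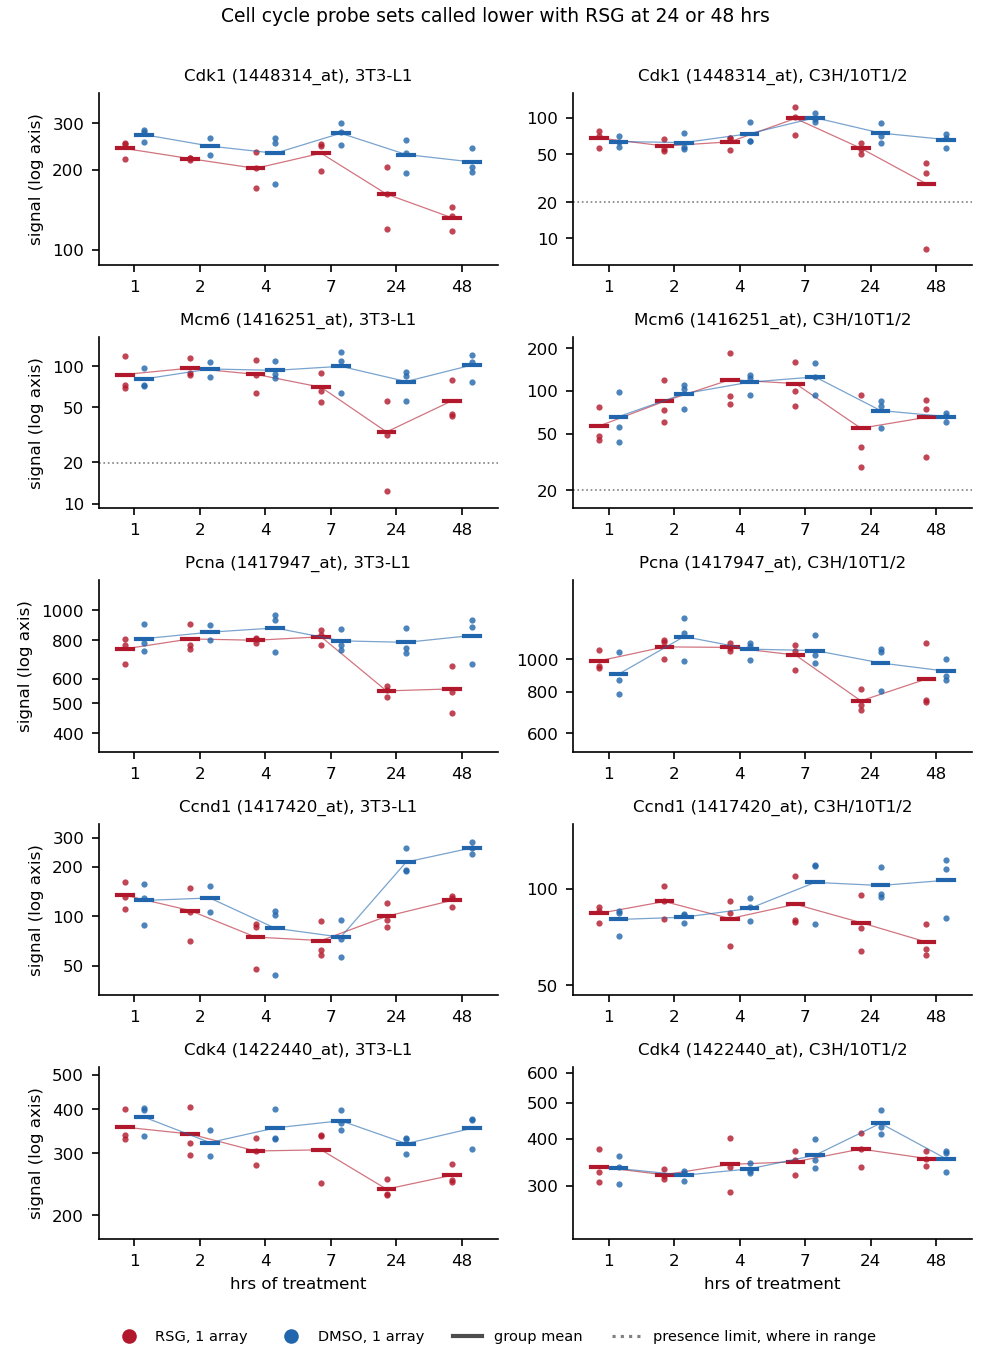
Signal on each array (points, log axis), with group means (bars), for Cdk1, Mcm6, Pcna, Ccnd1 and Cdk4 against hrs of treatment with RSG (red) or DMSO (blue) for 3T3-L1 adipocytes and for C3H/10T1/2 adipocytes. In 3T3-L1 adipocytes the 3 Pcna arrays with RSG at 24 hrs sit between 522.1 and 568.6, below the DMSO arrays, and Ccnd1 with DMSO is highest at 48 hrs.

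The other replication and mitosis genes were not called in 3T3-L1 adipocytes in the main fit. Among the remaining helicase subunits, the log2 changes of the main probe sets at 24 and 48 hrs were -0.39 and -0.34 for Mcm4, -0.23 and -0.42 for Mcm3, -0.03 and -0.02 for Mcm5, and 0.05 and -0.03 for Mcm7. Mcm2 read 67.4, 68.4 and 69.2 with RSG against 155.2, 190.1 and 74.1 with DMSO at 24 hrs. Its change of -0.93 had an adjusted p of 0.0584 by limma, of 0.00873 without DMSO replicate 3 and of 0.0497 with the block. Rrm2, a subunit of ribonucleotide reductase, read 44.6, 68.2 and 56.9 with RSG against 44.9, 30.2 and 35.9 with DMSO at 24 hrs, a change of 0.61 (adjusted p = 0.0909 by limma), while Rrm1, its partner, changed by 0.15. Of the mitosis genes, the kinases Aurka, Aurkb and Plk1 and the anaphase activator Cdc20 had log2 changes of 0.46, 0.48, 0.48 and 0.41 at 24 hrs and of -0.41, 0.11, 0.04 and 0.04 at 48 hrs. Top2a, the topoisomerase of dividing cells, and the spindle motor Kif11 changed by 0.01 and 0.10 at 24 hrs and by -0.51 and -0.34 at 48 hrs. Birc5 changed by 0.40 and -0.12. Mki67 read 29.2, 11.1 and 30.9 with RSG against 8.8, 4.4 and 21.8 with DMSO at 24 hrs, where the groups overlapped (adjusted p = 0.437 by limma). This RSG group was the only 1 of the 12 groups whose mean reached the presence limit, so Mki67 was tested only through it. The DMSO mean was under the limit, and no fold change is given. Ccna2, cyclin A, read 53.9, 56.7 and 66.4 with RSG against 109.9, 91.5 and 82.0 with DMSO at 48 hrs. The arrays did not overlap, but the change of -0.67 had an adjusted p of 0.0574 by limma, and of 0.0328 with the block. The second Ccna2 probe set changed by 0.22.

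One kinase inhibitor went the other way. Cdkn1a, which encodes p21, read 460.1, 371.9 and 464.1 with RSG and 255.7, 244.9 and 257.6 with DMSO at 24 hrs in 3T3-L1 adipocytes. The RSG arrays were all higher, by 0.77 ± 0.18 on the log2 scale (adjusted p = 0.00444 by limma), and the call passed without any 1 array. The second probe set, 1421679_a_at, changed by 0.54 (adjusted p = 0.124). At 7 hrs Cdkn1a read 443.6, 429.0 and 332.8 with RSG against 248.0, 310.2 and 285.4 with DMSO (0.51, adjusted p = 0.185). At 48 hrs, when 1 DMSO array read 412.7, the change was 0.24 (adjusted p = 0.462). Cdkn1b, which encodes p27, changed by -0.71 (adjusted p = 0.0589, and 0.0321 with the replicate block) and -0.55 on its main probe set at 24 and 48 hrs, and by -1.07 (adjusted p = 0.00396) at 24 hrs without DMSO replicate 3, but its second probe set changed by 0.31 and 0.01. Cdkn2c, which encodes p18, changed by 0.12 and -0.10. The adjusted p values are those of limma.

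Cyclin D2 (Ccnd2) had 7 probe sets, of which 1416124_at rose with 48 hrs of RSG in 3T3-L1 adipocytes. It read 134.9, 122.9 and 152.2 with RSG and 38.1, 101.1 and 83.7 with DMSO, a log2 change of 0.99 ± 0.30 (adjusted p = 0.0234 by limma). The change was 0.57 (adjusted p = 0.268) without DMSO replicate 1, and the call was also lost without RSG replicate 1 or 3 (adjusted p = 0.0586 and 0.0819). The main probe set, 1416122_at, changed by 0.02 at 48 hrs, and the 5 others ranged from -0.38 to 0.21. At 7 hrs it was the main probe set that stood higher, at 4604.1, 3577.3 and 4019.9 with RSG against 3420.6, 2172.4 and 2754.3 with DMSO, without overlap. That change of 0.57 had an adjusted p of 0.0788 by limma, of 0.0306 without DMSO replicate 1 and of 0.00244 with the replicate block. The block also called 1430127_a_at, 1434745_at and 1448229_s_at higher at 7 hrs (adjusted p = 0.00211, 0.0216 and 0.0387, against 0.234, 0.123 and 0.235 without it). Of all 18028 tested probe sets the block called 366 higher at that time. The remaining genes of the group had no called probe set in the main fit. With the block Rb1 was called higher and Rbl1 lower at 48 hrs (adjusted p = 0.0147 and 0.023 by limma). Rb1 was also called at 48 hrs after quantile normalization and without RSG replicate 1 or DMSO replicate 2 (adjusted p = 0.034, 0.042 and 0.0284 by limma). The methods' test called Rbl1 lower at 24 and 48 hrs and Ccnd3 lower at 48 hrs (unadjusted p = 0.0231, 0.00615 and 0.0214). At 24 and 48 hrs the main probe sets of the remaining genes changed by -0.23 and -0.33 (Ccnd3), 0.22 and 0.25 (Ccne1), -0.12 and 0.22 (Ccne2), 0.08 and 0.20 (Cdk2), 0.04 and 0.45 (Rb1), -0.38 and -0.55 (Rbl1) and -0.10 and -0.22 (E2f1).

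Fewer cell cycle probe sets were called in C3H/10T1/2 adipocytes. Cdk1 and Ccnd1 were lower and Cdkn1a was higher with RSG than with DMSO at 48 hrs, each on 1 probe set. The vehicle level of Cdkn1a had itself fallen by then. No cell cycle probe set was called by limma at 1, 2 or 4 hrs, when 0.0434%, 0.229% and 0.763% of all tested probe sets were, and 0, 1 and 5 of the 52 had a p under 0.05 before adjustment. Of all 16123 tested probe sets, 287, 351 and 595 were higher and 240, 325 and 745 lower before adjustment. By the methods' test 0, 0 and 5 were called. At 7 hrs 1 was called (2.85% of all). At 24 hrs none was higher and 1 was lower, against 3.65% and 4.07% of all. At an unadjusted p under 0.05, 2 of the 52 were higher and 8 lower, against 1247 and 1971 of all 16123 tested probe sets. The methods' test called 0 and 7. At 48 hrs 1 was higher and 2 were lower (3.85%), against 2.79% and 2.62%. The median log2 change was -0.15 at 24 hrs and -0.12 at 48 hrs, against -0.07 and -0.01 for all tested probe sets. Same-numbered C3H/10T1/2 arrays deviated together, and with the replicate number as a block 3 were called at 7 hrs, against 6.01% of all tested probe sets. The block called 1 higher and 3 lower at 24 hrs, against 5.36% and 7.27% of all, and 2 higher and 3 lower at 48 hrs, against 4.56% and 4.87%. The fibroblast marker signal given above was also lower with RSG at both times.

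Cdk1 read 8.1, 34.7 and 42.5 with RSG and 56.7, 68.3 and 73.4 with DMSO at 48 hrs in C3H/10T1/2 adipocytes. All RSG arrays were lower and 1 was under the presence limit. The log2 fold change was -1.52 ± 0.33 (adjusted p = 0.00355 by limma), and with a floor or with any 1 array left out it stayed called, at -0.78 to -1.97. The methods' test did not call it. At 24 hrs Cdk1 read 50.6, 55.3 and 62.1 with RSG against 91.3, 62.3 and 71.1 with DMSO, a change of -0.41 (adjusted p = 0.553 by limma).

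Ccnd1 (1417420_at) read 65.0, 62.1 and 77.5 with RSG and 80.9, 115.1 and 122.9 with DMSO at 48 hrs. The groups lay close but apart, and the log2 fold change was -0.62 ± 0.18 (adjusted p = 0.0361 by limma). The main probe set changed by -0.33 and was not called. Without RSG replicate 1 or 2 or DMSO replicate 2 or 3 the call was lost (adjusted p = 0.108, 0.138, 0.146 and 0.179), as it was without the filter and after quantile normalization (adjusted p = 0.0518 and 0.0698). Cdkn1a read 1254.9, 1019.5 and 1132.1 with RSG against 905.5, 753.1 and 788.0 with DMSO at 48 hrs. The arrays did not overlap, and the log2 fold change was 0.48 ± 0.14 (adjusted p = 0.0403 by limma), lost without RSG replicate 1 or 3 or DMSO replicate 2 or 3 (adjusted p = 0.171, 0.0952, 0.159 and 0.116). It was also lost without the trend, without the filter and after quantile normalization (adjusted p = 0.0627, 0.0567 and 0.0519). Its second probe set changed by 0.61 (adjusted p = 0.0504), and with the replicate block that became 0.00584. At 24 hrs the second probe set changed by 0.44 (adjusted p = 0.17, and 0.0464 with the block). In vehicle the main Cdkn1a probe set changed by -1.04 on the log2 scale from 1 to 48 hrs, as given below.

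Some replication and cyclin group genes of C3H/10T1/2 adipocytes were called with the block but not in the main fit. Mcm4 read 65.1, 87.3 and 81.5 with RSG and 111.1, 119.2 and 113.4 with DMSO at 48 hrs, a change of -0.57 (adjusted p = 0.0789 by limma, 0.00203 with the block). At 7 hrs its change of -0.45 had an adjusted p of 0.237, and of 0.0223 with the block. Pcna read 705.6, 814.7 and 731.4 with RSG against 803.3, 1049.6 and 1072.5 with DMSO at 24 hrs and the groups overlapped, a change of -0.37 (adjusted p = 0.11, 0.0465 with the block, and 0.041 without DMSO replicate 1). Rbl1, the pocket protein p107, read 37.6, 41.5 and 36.3 with RSG against 50.1, 73.9 and 64.2 with DMSO at 24 hrs, a change of -0.69 (adjusted p = 0.109, 0.0274 with the block). The block also called Ccnd2 1434745_at at 7 hrs, with a change of 0.42 (adjusted p = 0.0262). All these are adjusted p values of limma fits. The methods' test also called Mcm4 at 48 hrs and Rbl1 at 24 hrs (unadjusted p = 0.0126 and 0.0166).

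Both remaining calls in C3H/10T1/2 adipocytes lay at the presence limit. E2f1, a factor that activates replication genes, read 19.9, 7.3 and 6.7 with RSG and 35.9, 34.3 and 36.0 with DMSO at 24 hrs on probe set 1417878_at. The mean with RSG was under the limit, and with signals floored at the limit the log2 change was -0.83 (adjusted p = 0.00556 by limma). On the unfloored signals the adjusted p was 0.0493, and the call was lost without any of 5 of the 6 arrays (adjusted p = 0.109 to 0.177), without the trend (0.056), without the filter (0.0691) and after quantile normalization (0.0891). The main E2f1 probe set changed by -0.64 (adjusted p = 0.102). Mcm3 1420029_at read 17.3, 19.0 and 20.0 with RSG against 8.3, 9.3 and 3.6 with DMSO at 7 hrs (adjusted p = 0.0155 by limma). All 3 DMSO arrays were under the limit and so was the RSG mean, so no fold change is given. With signals floored at the limit the call was lost, as it was without RSG replicate 2 or 3 (adjusted p = 0.05 and 0.0593) or DMSO replicate 3 (adjusted p = 0.168), and the main Mcm3 probe set was not called at any time. Of the other genes in C3H/10T1/2 adipocytes, none was called in the main fit. Ccna2 had the largest change of a main probe set at 24 hrs, -1.26 (adjusted p = 0.0712), and Mcm6 changed by -0.57 at 24 hrs and -0.12 at 48 hrs.

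**Figure D3:**
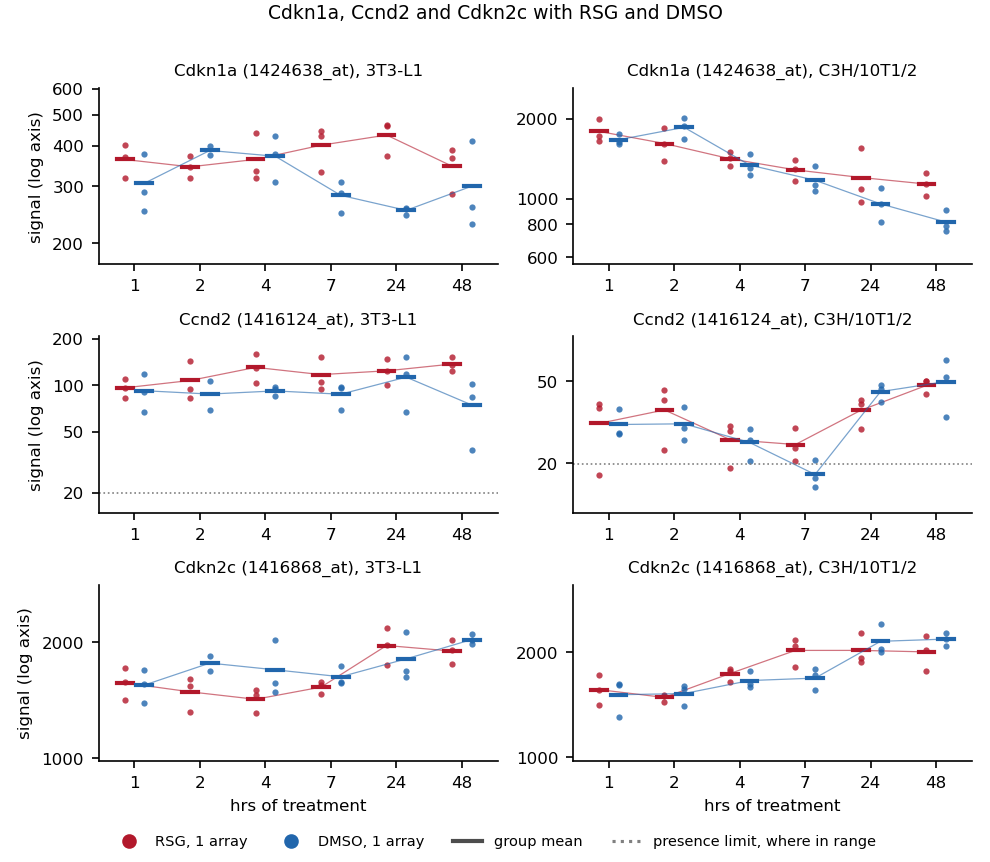
Signal on each array (points, log axis), with group means (bars), for Cdkn1a, Ccnd2 (1416124_at) and Cdkn2c against hrs of treatment with RSG (red) or DMSO (blue) for 3T3-L1 adipocytes and for C3H/10T1/2 adipocytes. Cdkn1a in C3H/10T1/2 adipocytes lies at 1020 to 1255 with RSG and 753.1 to 905.5 with DMSO at 48 hrs, and Cdkn2c shows no separation at that time.

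No cell cycle probe set differed in its RSG effect between the cell types. The effect in 3T3-L1 minus that in C3H/10T1/2 adipocytes was tested in a joint limma fit, where 0.257% and 0.848% of all tested probe sets were called at 24 and 48 hrs in either direction. At an unadjusted p under 0.05, 3 of the 60 cell cycle probe sets were higher and 0 lower at 24 hrs, and 3 and 4 at 48 hrs. Of all 18274 tested probe sets, 807 were higher and 725 lower at 24 hrs at that p, and 820 and 839 at 48 hrs. The differences were -0.11 ± 0.38 and 0.83 ± 0.38 (SE, log2) for Cdk1, 0.46 ± 0.23 and -0.24 ± 0.23 for Cdkn1a, and -0.15 ± 0.19 and -0.47 ± 0.19 for Pcna, at 24 and 48 hrs. These standard errors leave room for sizeable differences. With the replicate block 1 probe set of Cdk4, 1422439_a_at, differed at 48 hrs (-0.51, adjusted p = 0.0252, against 0.24 without the block).

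The second comparison asked what happened in vehicle alone after the washout. In 3T3-L1 adipocytes little moved. At 7 hrs against 1 hr of DMSO no cell cycle probe set was higher and 1 was lower by limma, against 0.0166% and 0.0666% of all tested probe sets. At 24 hrs none was called in either direction, against 0.288% and 0.660%, and at 48 hrs 2 were higher and 1 was lower, against 0.577% and 1.39%. At an unadjusted p under 0.05, none was higher at 7 hrs, and 5 were higher and 5 lower at 24 hrs. Of all 18028 tested probe sets, 452 were higher at 7 hrs at that p, and 992 higher and 930 lower at 24 hrs. The methods' test called 0 higher at 7 hrs, and 1 higher and 4 lower at 24 hrs. The main Ccnd1 probe set averaged 254.5, 202.4, 186.9, 155.2, 324.3 and 400.5 with DMSO at the 6 times from 1 to 48 hrs. It was lower at 7 hrs and higher at 48 hrs than at 1 hr, by -0.71 ± 0.14 (adjusted p = 0.0323) and 0.65 ± 0.14 (adjusted p = 0.0077), with no overlap. The call at 7 hrs was lost without any 1 of the 6 arrays (adjusted p = 0.081 to 0.157) and that at 48 hrs without DMSO 48 hr replicate 1 (adjusted p = 0.0903). Probe set 1417420_at changed by 1.10 (adjusted p = 0.0492) at 48 hrs, a call lost without 5 of the 6 arrays (adjusted p = 0.0689 to 0.303), without the trend or the filter, with the floor and after quantile normalization (adjusted p = 0.0555 to 0.0801). The second Cdkn1b probe set, 1419497_at, read 21.1, 27.8 and 41.8 at 48 hrs and 59.5, 55.2 and 61.9 at 1 hr (-1.02 ± 0.26, adjusted p = 0.0274), a call lost without any array but DMSO 48 hr replicate 3 (adjusted p = 0.0692 to 0.238). With the replicate block Ccnd2 1430127_a_at was higher at 24 and 48 hrs (0.46 and 0.49, adjusted p = 0.007 and 0.00211). At 24 hrs the block also called Ccnd2 1434745_at and Ccnd1 1417420_at higher and Cdkn1b 1419497_at lower (adjusted p = 0.0315, 0.034 and 0.0333). At 48 hrs it added Cdkn2c, as given below. Of all 18028 tested probe sets the block called 138 higher and 233 lower at 24 hrs and 284 higher at 48 hrs. These tests are those of limma.

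In C3H/10T1/2 adipocytes kept in vehicle, cyclin D2 was lower at 7 hrs and higher at 48 hrs than at 1 hr, while Cdkn1a fell and Cdkn2c rose. At 7 hrs 1 of the 52 cell cycle probe sets was higher and 6 were lower (11.5%), against 5.67% and 4.40% of all tested probe sets, by limma. At 24 hrs 3 were higher (5.77%) and 2 lower (3.85%), against 6.25% and 5.50%, and at 48 hrs 4 were higher (7.69%) and 2 lower (3.85%), against 5.09% and 5.12%. With the replicate block, the counts were 3 higher and 7 lower at 7 hrs (8.69% and 6.39% of all), 5 higher and 4 lower at 24 hrs (9.38% and 7.57%), and 6 higher and 3 lower at 48 hrs (7.71% and 7.55%).

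Cdkn1a (1424638_at) averaged 1669 ± 78.7, 1860 ± 169, 1340 ± 129, 1173 ± 134, 955.7 ± 139 and 815.5 ± 79.8 with DMSO at the 6 times from 1 to 48 hrs (SD, n = 3). The arrays at 48 hrs, 905.5, 753.1 and 788.0, were all below those at 1 hr, 1610.8, 1637.5 and 1758.4. The RSG arrays at 48 hrs, given above, lay between these groups. The log2 change against 1 hr was -0.51 ± 0.14 (adjusted p = 0.0166) at 7 hrs, -0.81 ± 0.14 (adjusted p = 0.000135) at 24 hrs and -1.04 ± 0.14 (adjusted p = 3.89e-06) at 48 hrs by limma. The calls at 24 and 48 hrs passed without any 1 array, and that at 7 hrs was lost without DMSO 1 hr replicate 3 (adjusted p = 0.063), DMSO 7 hr replicate 1 (adjusted p = 0.0775) or DMSO 7 hr replicate 3 (adjusted p = 0.0633), and after quantile normalization (adjusted p = 0.0658). The second probe set fell by 0.61 and 0.94 at 24 and 48 hrs (adjusted p = 0.0272 and 0.000748), the 24 hr call lost without DMSO 1 hr replicate 3 or DMSO 24 hr replicate 1 or 2 (adjusted p = 0.199, 0.183 and 0.0505).

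Cdkn2c (1416868_at) averaged 1509, 1521, 1658, 1685, 2148 and 2180 with DMSO at the 6 times. Its log2 change was 0.51 ± 0.11 (adjusted p = 0.00129) at 24 hrs and 0.54 ± 0.11 (adjusted p = 0.000834) at 48 hrs by limma, called without any 1 array. In 3T3-L1 adipocytes the Cdkn2c change at 48 hrs was 0.40 (adjusted p = 0.0887 by limma, and 0.0472 with the block). The methods' test called that change (unadjusted p = 0.00949). Ccnd2 (1416122_at) averaged 1331, 1334, 911.9, 849.7, 1760 and 2031 in C3H/10T1/2 adipocytes. At 7 hrs 4 Ccnd2 probe sets were lower, by 0.63 to 0.86 on the log2 scale (adjusted p = 0.000153 to 0.00803), and the block added 1416124_at (-0.81, adjusted p = 0.0143). At 48 hrs 3 were higher, by 0.53 to 0.69 (adjusted p = 0.000425 to 0.0165), and the block added the same probe set (0.66, adjusted p = 0.0489). Of these, 1455956_x_at at 48 hrs and 1416122_at at 7 and 48 hrs were lost without 1 or more single arrays (adjusted p = 0.067 to 0.103, 0.0787, and 0.0745 and 0.0916). At 24 hrs 1430127_a_at was higher (0.46, adjusted p = 0.016), a call lost without DMSO 1 hr replicate 1 or 3 or DMSO 24 hr replicate 2 (adjusted p = 0.0743, 0.0933 and 0.0641). With RSG at 7 hrs the main Ccnd2 probe set read 1058.0, 1146.3 and 943.0, against 937.2, 762.5 and 849.5 with DMSO.

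Of the other genes in vehicle, Cdk4, Cdkn1b and Mcm3 were called. Cdk4 1422440_at read 478.5, 412.5 and 429.5 at 24 hrs and 360.1, 336.4 and 303.5 at 1 hr (0.40, adjusted p = 0.0174), a call lost without DMSO 1 hr replicate 3 or DMSO 24 hr replicate 1 (adjusted p = 0.0977 and 0.0935). Cdkn1b averaged 92.7, 118.1, 215.6, 152.5, 84.8 and 89.3 at the 6 times, highest at 4 hrs, and its rise at 7 hrs of 0.73 ± 0.22 (adjusted p = 0.0274) was lost without DMSO 1 hr replicate 1 or 2 or DMSO 7 hr replicate 2 or 3 (adjusted p = 0.101 to 0.138). Mcm3 1420029_at was called lower at 7 hrs, but its 3 arrays at 7 hrs, at 8.3, 9.3 and 3.6, were under the limit. With a floor at the limit it changed by -0.22 (adjusted p = 0.375), and its call was lost without DMSO 1 hr replicate 3 or DMSO 7 hr replicate 3 (adjusted p = 0.0526 and 0.063). With the block Mcm6 and Mcm4 were higher at 7 hrs, by 0.99 (adjusted p = 0.00167) and 0.40 (adjusted p = 0.0221), and Mcm4 at 48 hrs by 0.36 (adjusted p = 0.0417). The block also called Ccnd3 higher (0.49, adjusted p = 0.0268), Ccnd2 1416122_at higher (0.42, adjusted p = 0.0441), and Rb1 and Mcm7 lower (-0.51 and -0.47, adjusted p = 0.0247 and 0.028) at 24 hrs, and Mcm7 1416030_a_at lower (-0.52, adjusted p = 0.0455) at 48 hrs. All are limma fits.

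**Figure D4:**
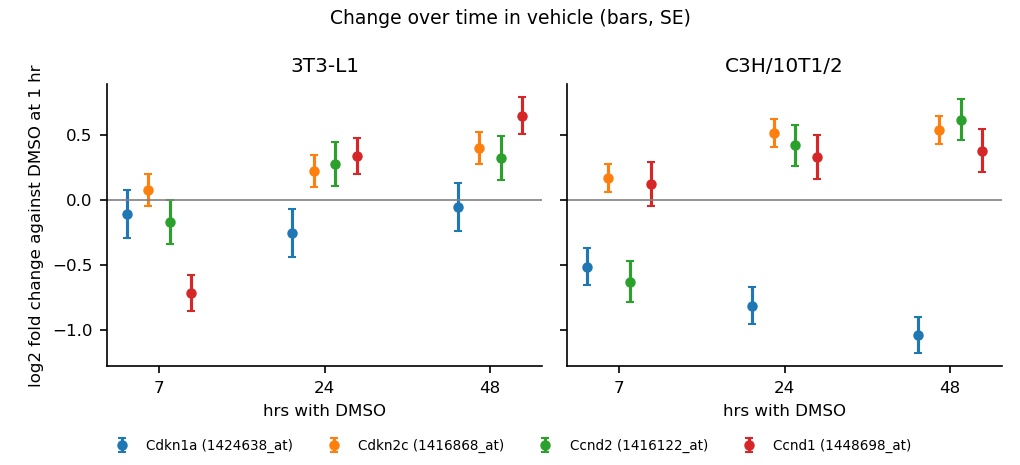
Log2 fold change of 4 main probe sets with DMSO at 7, 24 and 48 hrs against DMSO at 1 hr, with standard errors, for 3T3-L1 adipocytes and for C3H/10T1/2 adipocytes. Cdkn1a lies at -0.51, -0.81 and -1.04 in C3H/10T1/2 adipocytes, and the main Ccnd1 probe set at 0.65 at 48 hrs in 3T3-L1 adipocytes.

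The third comparison set the levels of the cell types side by side with DMSO at 1 hr. Most cell cycle genes gave a higher signal in 3T3-L1 adipocytes, and Cdkn1a a lower one. Of the 60 probe sets tested, 35 (22 genes) were higher and 3 (2 genes) lower in 3T3-L1 than in C3H/10T1/2 adipocytes by limma, 58.3% and 5.00%, against 31.5% and 13.3% of all tested probe sets. The median log2 difference over all tested probe sets was 0.34, and that of the cell cycle probe sets was 0.76. Quantile normalization took the overall median to 0.06, and then 20 cell cycle probe sets were higher and 4 lower, with 3304 and 3158 of all probe sets, against 5753 and 2439 without it. Each cell type had its own differentiation protocol, and cell type and protocol cannot be told apart.

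Cdk1 read 253.6, 277.2 and 282.6 in 3T3-L1 adipocytes, against 63.6, 56.9 and 70.6 in C3H/10T1/2 adipocytes, a log2 difference of 2.09 ± 0.27 (adjusted p = 6.27e-09 by limma) and of 1.89 after quantile normalization. Mcm2 1448777_at read 100.9, 77.9 and 77.1 in 3T3-L1 adipocytes, against 16.4, 17.7 and 24.0 in C3H/10T1/2 adipocytes. Its log2 difference was 2.15 ± 0.25 (adjusted p = 2.11e-10), and 1.67 after quantile normalization. All 7 Ccnd2 probe sets were higher, by 0.85 to 2.14, also after quantile normalization. In the other direction Cdkn1a read 288.7, 251.7 and 378.7 in 3T3-L1 adipocytes, against 1610.8, 1637.5 and 1758.4 in C3H/10T1/2 adipocytes, a log2 difference of -2.47 ± 0.17 (adjusted p = 1.84e-18), and Rb1 read 113.2, 139.2 and 148.4 against 192.5, 257.6 and 281.5 (-0.86 ± 0.17, adjusted p = 5.87e-05). These arrays did not overlap, and the Cdkn1a difference was -2.35 and that of Rb1 -1.01 after quantile normalization.

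Other calls were split by quantile normalization. The main probe sets of Ccnd1, Ccnd3, Cdkn1b, Rrm1 and Mcm4 were higher by 1.15, 0.90, 0.93, 0.90 and 0.72 and stayed called after quantile normalization, with differences of 1.01, 0.93, 0.71, 0.69 and 0.49. Those of Top2a, Aurka, Aurkb, Cdc20, Ccna2, Rbl1, Rrm2 and E2f1 were higher by 0.69 to 1.10 and were not called after quantile normalization (0.17 to 0.56). For groups with every array under the limit only a bound holds, computed against the limit. Birc5 was at least 1.40-fold, Ccne2 at least 1.58-fold, Kif11 1452315_at at least 1.23-fold, Mcm6 1438852_x_at at least 1.56-fold and Rrm2 1416120_at at least 1.13-fold higher in 3T3-L1 adipocytes (adjusted p = 0.00122, 0.0157, 0.0291, 0.0171 and 0.0188 by limma). These p values are of signals without a floor and do not test the bounds. Birc5, Kif11 1452315_at and Rrm2 1416120_at entered only because they reached the limit in 3T3-L1 adipocytes. The Kif11 groups overlapped, so that its 3T3-L1 arrays were not all above the limit either. After quantile normalization Birc5 stayed called (adjusted p = 0.0148), while Ccne2, Kif11, Mcm6 and Rrm2 were not, with log2 differences of 0.18, 0.32, 0.64 and 0.75 (adjusted p = 0.625, 0.45, 0.232 and 0.229). Mki67 was called too, but its 3T3-L1 mean of 17.7 was itself under the limit and no fold change is given. With the replicate block Ccne2, Kif11, Mcm6, Mki67 and E2f1 were not called (adjusted p = 0.124, 0.0547, 0.063, 0.0536 and 0.108) and Ccne1 was (1.07, adjusted p = 0.0124). Main probe sets of Ccne1, Pcna, Mcm3, Mcm6, Mcm7, Mcm5, Cdk2, Cdk4, Cdkn2c, Plk1 and Kif11 were not called in the fit without the block, and after quantile normalization Cdk2 was lower (-0.56, adjusted p = 0.0164) and Cdkn2c higher (0.30, adjusted p = 0.019). The main Cdk4 probe set read 593.4, 534.5 and 561.4 in 3T3-L1 adipocytes, against 545.9, 623.0 and 553.5 in C3H/10T1/2 adipocytes.

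**Figure D5:**
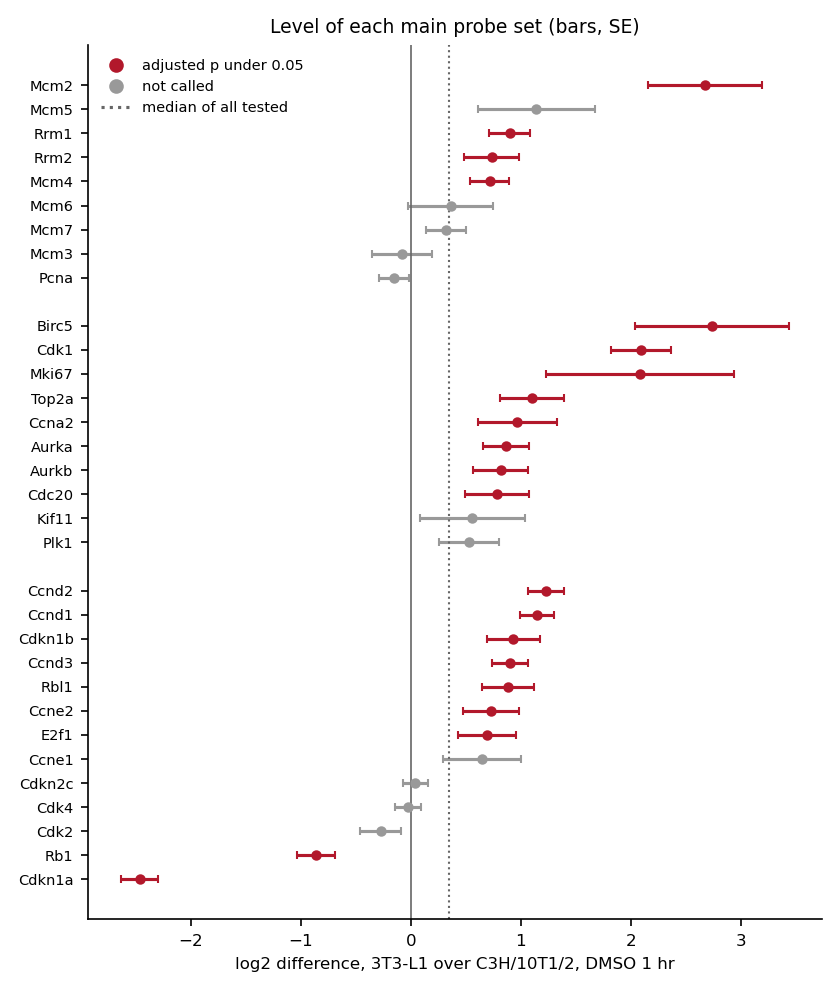
Log2 difference in signal, 3T3-L1 over C3H/10T1/2 adipocytes with DMSO at 1 hr, of the main probe set of each gene, with standard errors. Red points have an adjusted p under 0.05, the dotted line is the median of all tested probe sets (0.34), and Cdkn1a lies at -2.47.

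Further genes of the cell cycle, listed by function with earlier results of these data known, were called in both directions with RSG. Among those in 3T3-L1 adipocytes, 1 of 65 other replication probe sets was higher and 4 lower at 24 hrs, and 2 and 3 at 48 hrs. Of 74 other mitosis probe sets 0 and 2 were called at 24 hrs and 1 and 2 at 48 hrs, and of 43 probe sets of other regulators 5 and 5, and 5 and 3. In percent, higher and lower, these were 1.54 and 6.15 for replication, 0 and 2.70 for mitosis and 11.6 and 11.6 for the regulators at 24 hrs, against 4.79 and 6.97 for all tested probe sets. At 48 hrs they were 3.08 and 4.62, 1.35 and 2.70, and 11.6 and 6.98, against 6.20 and 8.09 for all. The replication and mitosis shares were thus all below those of all tested probe sets. At an unadjusted p under 0.05, 4 other mitosis probe sets were higher at 24 hrs, against 1670 of all 18028 tested probe sets. Fen1, the flap nuclease of DNA replication, read 49.0, 57.3 and 48.8 with RSG and 347.8, 173.7 and 167.8 with DMSO at 48 hrs (1436454_x_at, -2.07 ± 0.59, adjusted p = 0.0152 by limma). Anln, which encodes the cytokinesis protein anillin, read 81.0, 120.4 and 136.1 with RSG against 167.0, 270.3 and 266.5 with DMSO at 24 hrs (-1.06 ± 0.21, adjusted p = 0.000573), and Stmn1, which encodes the microtubule regulator stathmin, fell by 0.63 (adjusted p = 0.00505) at 48 hrs. Of the genes of nucleotide and chromosome metabolism, Dut fell by 0.78 at 48 hrs, and Rfc3 and Smc4 by 0.72 and 0.63 at 24 hrs. Ung and Orc2 rose by 1.26 and 0.67 at 48 hrs, and Orc6 by 0.56 at 24 hrs. Cenpa, the centromere histone, read 74.2 to 94.0 with RSG and 11.0 to 59.9 with DMSO at 48 hrs (adjusted p = 0.0424). Fewer were called in the other cell type, C3H/10T1/2, where 0 of 60 other replication probe sets were higher and 1 lower at 24 hrs and 1 and 1 at 48 hrs, 0 and 1, and 1 and 1, of 58 for mitosis, and 3 and 2, and 2 and 0, of 40 for other regulators by limma, where 3.65% and 4.07% of all tested probe sets were called at 24 hrs and 2.79% and 2.62% at 48 hrs. At an unadjusted p under 0.05 the counts of 0 became 2, 1 and 2. Of all 16123 tested probe sets, 1247 were higher at 24 hrs and 1423 lower at 48 hrs at that p.

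Of the regulators outside the 38, Ccng2 and Pkmyt1 rose in both cell types and others fell. Ccng2, cyclin G2, which is linked to cell cycle arrest, read 670.1, 932.1 and 869.9 with RSG and 144.9, 469.7 and 380.0 with DMSO at 48 hrs in 3T3-L1 adipocytes (1.46 ± 0.25, adjusted p = 9.74e-05 by limma), and 675.9, 581.5 and 844.2 with RSG against 424.9, 303.9 and 488.0 with DMSO in C3H/10T1/2 adipocytes (0.80 ± 0.22, adjusted p = 0.0258). Pkmyt1, a kinase that inhibits Cdk1, read 293.6, 236.3 and 221.4 with RSG against 118.1, 118.9 and 119.7 with DMSO at 48 hrs in 3T3-L1 adipocytes (1.06 ± 0.18, adjusted p = 8.6e-05) and rose by 0.75 (adjusted p = 0.00494) at 24 hrs in C3H/10T1/2 adipocytes. Cdc25a, a phosphatase that activates cyclin-dependent kinases, rose as well at 48 hrs in 3T3-L1 adipocytes (1.17 ± 0.23, adjusted p = 0.000472). E2f5 fell in both cell types at 24 hrs, on different probe sets, by 1.06 in 3T3-L1 (1417444_at) and by 0.59 in C3H/10T1/2 adipocytes (1460207_s_at). Myc fell by 0.52 at 24 hrs in C3H/10T1/2 adipocytes. Cdc23 fell by 0.65 at 24 hrs and Ccnh by 0.53 at 48 hrs in 3T3-L1 adipocytes. In C3H/10T1/2 adipocytes Msh6 rose by 0.56 at 48 hrs, Rpa2 and Bub3 fell by 0.68 and 0.46 at 24 hrs, and Cks1b, a partner of Cdk1, fell by 0.54 at 48 hrs. Fen1 1421731_a_at was at least 1.18-fold lower and Ncapg at least 1.08-fold higher with RSG there at 48 hrs, since 1 group of each was under the limit.

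Cdkn1a is a target of p53, and other p53 targets were counted beside it. Of the 27 probe sets tested in 3T3-L1 adipocytes, 3 were higher and 2 lower at 24 hrs, and 3 were higher and 0 lower at 48 hrs by limma, with 2 lower at 48 hrs at an unadjusted p under 0.05. That is 11.1% higher at both times and 7.41% and 0% lower, against 4.79% and 6.20% higher and 6.97% and 8.09% lower for all tested probe sets. At the unadjusted p, 2641 of all 18028 were lower at 48 hrs. Ddit4, an inhibitor of mTOR signaling, read 193.2, 317.9 and 309.3 with RSG and 67.9, 69.8 and 153.2 with DMSO at 48 hrs (1.57 ± 0.29, adjusted p = 0.000243). Phlda3 rose by 0.52 at 48 hrs and Mdm2, the ligase that degrades p53, by 0.50 at 24 hrs. Trp53inp1 and Gadd45a fell at 24 hrs, by 1.11 and 0.89. None of the 26 tested in C3H/10T1/2 adipocytes was called at 24 or 48 hrs by limma, and 1 was higher and 0 lower, and 1 higher and 3 lower, at an unadjusted p under 0.05. Of all tested probe sets, 3.65% were called higher and 4.07% lower at 24 hrs, and 2.79% and 2.62% at 48 hrs. At the unadjusted p, 1247 of all 16123 were higher and 1971 lower at 24 hrs, and 1231 and 1423 at 48 hrs.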

How the data were processed

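RNA of 71 cultures was hybridized to Affymetrix mouse 430A arrays. The authors deposited 1 table of signal intensities, made with MAS 5.0 (no version was given), on a linear scale and scaled by them. MAS 5.0 subtracts mismatch signals, which makes values near the limit unstable. Of 22690 probe sets, 64 controls were set aside. The probe annotation gave 1 gene for 20380, several for 691 and none for 1555 probe sets. The 132 values of 0 were set to 0.1, and the log2 values went into limma 3.58.1 under R 4.3.3 (lmFit, then eBayes with its trend option), every group having its own mean, once for each cell type (18028 and 16123 tested probe sets) and once for both (18274). Adjustment within each comparison was by Benjamini-Hochberg and covered every tested probe set. Tables and plots were made with Python 3.11.15 and matplotlib 3.10.9, and the fit was tested on simulated data. The number of arrays limits the precision.

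The 38 genes and the other lists were chosen with earlier results of these data known. Every member was named by its main probe set, the one with the highest mean log2 signal over the 71 arrays, and its other probe sets where they differed. From each other list, up to 3 rises and 3 falls with RSG at 24 or 48 hrs in each cell type were named where the adjusted p was under 0.05 and the arrays did not overlap. RSG and DMSO arrays with the same replicate number correlated, after group means were removed, at 0.132 to 0.307 in 18 of 18 pairs of C3H/10T1/2 adipocytes and over 0.1 in 14 of 17 pairs (0.019 to 0.261) of 3T3-L1 adipocytes. The methods do not say that a number marks the same batch. The main calls of both cell types came from fits without the replicate block and so ignore any such pairing. The block was fitted in each cell type as an alternative, and in the joint fit it used the numbers of both. The alternatives were no trend, quantile normalization, a floor at the presence limit, no filter, the replicate block, the methods' test with and without adjustment, and each array left out in turn.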

Additional observations from a re-analysis of the deposited data

How the results depend on the processing

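Each choice was changed alone, and no named value changed sign with a call. The counts that follow are cell cycle probe sets called. With the methods' test and adjustment every count was 0, and the cause was not tested. With the methods' test alone, RSG in 3T3-L1 adipocytes gave 3, 2, 1 and 4 at 1, 2, 4 and 7 hrs, 4 higher at 24 hrs and 0 higher at 48 hrs. In C3H/10T1/2 adipocytes it gave 5 and 4 at 4 and 7 hrs, 7 lower at 24 hrs, and 3 higher and 5 lower at 48 hrs. In vehicle against 1 hr it gave 2 lower at 7 hrs, 1 higher and 4 lower at 24 hrs and 2 lower at 48 hrs in 3T3-L1 adipocytes, and 4 higher at 7 hrs, 5 higher and 1 lower at 24 hrs and 4 lower at 48 hrs in C3H/10T1/2 adipocytes.

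Of the calls named in the report, the methods' test alone did not make, with RSG, those of Mcm6 and Cdk1 at 24 hrs and Ccnd2 1416124_at and Pcna at 48 hrs in 3T3-L1 adipocytes and Cdk1 at 48 hrs in C3H/10T1/2 adipocytes, and, in vehicle in C3H/10T1/2 adipocytes, those of Mcm3 1420029_at at 7 hrs, Cdkn1a 1421679_a_at at 24 hrs and Ccnd2 1416122_at and 1455956_x_at at 48 hrs.

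Using the replicate block, RSG in 3T3-L1 adipocytes gave 4 at 7 hrs, all of Ccnd2, 2 higher at 48 hrs, and in vehicle 3 higher and 1 lower at 24 hrs and 4 higher at 48 hrs. To the lower calls with RSG it added Cdkn1b and Mcm2 at 24 hrs, and Ccna2, Cdk4 1422441_x_at and Rbl1 at 48 hrs. Of all 18028 tested probe sets the block called 1682 and 1837 lower at these times, against 1256 and 1458 without it. In C3H/10T1/2 adipocytes the block gave 3 at 7 hrs, 1 higher and 3 lower at 24 hrs and 2 higher at 48 hrs, and in vehicle 3 higher at 7 hrs and 5 higher and 4 lower at 24 hrs. For 1, the RSG effects at 48 hrs differed between cell types. The block lost no call within a cell type.

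Quantile normalization gave 4 lower at 24 hrs and 2 higher at 48 hrs with RSG in 3T3-L1 adipocytes, 1 lower at 24 hrs and 1 higher at 48 hrs in vehicle, 0 lower at 24 hrs and 0 higher and 1 lower at 48 hrs with RSG in C3H/10T1/2 adipocytes, and 20 higher in 3T3-L1 than in C3H/10T1/2 adipocytes. Without a trend there were 2 higher at 24 hrs with RSG, and 1 lower at 24 hrs and 1 higher at 48 hrs in vehicle, in 3T3-L1 adipocytes, and 0 lower at 24 hrs and 0 higher at 48 hrs with RSG in C3H/10T1/2 adipocytes. Without the filter there were 2 higher at 48 hrs with RSG and 1 higher at 48 hrs in vehicle in 3T3-L1 adipocytes, and 0 lower at 24 hrs and 0 higher and 1 lower at 48 hrs with RSG in C3H/10T1/2 adipocytes. With the floor there were 1 lower at 24 hrs and 1 higher at 48 hrs in vehicle in 3T3-L1 adipocytes, and 0 at 7 hrs and 2 higher at 48 hrs with RSG in C3H/10T1/2 adipocytes. The cause of these shifts was not tested.

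Leaving out 1 array at a time gave, for RSG in 3T3-L1 adipocytes, 0 to 3 at 7 hrs (3 without DMSO replicate 1), 1 to 2 higher and 3 to 6 lower at 24 hrs, and 0 to 2 higher and 4 to 7 lower at 48 hrs. In vehicle it gave 0 to 0 lower at 7 hrs, 0 to 1 lower at 24 hrs, and 0 to 2 higher and 0 to 1 lower at 48 hrs. In C3H/10T1/2 adipocytes it gave 0 to 1 at 7 hrs, 0 to 1 higher and 0 to 1 lower at 24 hrs, and 0 to 1 higher and 1 to 2 lower at 48 hrs, and in vehicle 0 to 3 higher and 4 to 6 lower at 7 hrs, 2 to 4 higher and 1 to 3 lower at 24 hrs, and 2 to 4 higher and 2 to 2 lower at 48 hrs. The level comparison gave 27 to 33 higher and 3 lower, and the difference between the cell types 0 to 1 at 24 hrs, with 1 without C3H/10T1/2 RSG 24 hr replicate 2, and 0 to 0 at 48 hrs. Where every array of a group lay under the presence limit, its level is a bound only, and the genes not tested for that reason may have changed below it.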
